A study of Mus musculus with 8 samples.

Results

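The genes described here encode the proteins of the cytosolic ribosome, and they were chosen by symbol alone. A gene was a member if its symbol was Rpl or Rps followed by a number, with or without a closing letter or digit (a, l, x or y), or was Rplp0, Rplp1, Rplp2 or Rpsa. The rule gave 84 of 24346 genes, 51 of the large and 33 of the small subunit. RNA was sequenced from wild-type (WT) mouse bone marrow cells of 2 kinds, cultured for 1 day either alone or with red blood cells (RBCs), giving 4 groups of 2 libraries. LSK cells had been sorted as lineage-negative cells positive for Sca-1 and c-Kit, and hematopoietic stem cells (HSCs) as those LSK cells that also carried CD150 but lacked CD48. LSK cells are thus the wider population, which contains HSCs and multipotent progenitors. All cultures held stem cell factor and thrombopoietin, the RBCs came from C57BL6/J blood that had been filtered to remove leukocytes and irradiated, and CD45+ cells were sorted again before RNA extraction. The study used adult female or male mice. The age and sex of the mice behind each library, and whether replicates came from separate animals, were not given in the sources used here, so the p-values measure the spread between these libraries only.

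Each ribosome is built from a small subunit, which binds the mRNA and decodes it, and a large subunit, which joins the amino acids. Ribosomal protein genes are transcribed at high rates, and most of their mRNAs begin with a C followed by a run of pyrimidines, the terminal oligopyrimidine (TOP) motif, through which mTOR signaling controls their translation. Blood formation is known to be sensitive to the supply of these proteins: loss of a single copy of genes such as RPS19 causes Diamond-Blackfan anemia in humans. HSCs are known for a lower rate of protein synthesis than the progenitors derived from them. mRNA levels, which are measured here, do not show how much an mRNA is translated.

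The first bases of several members are shown because the TOP motif is the sequence feature that this family is known for. RefSeq promoter entries (GRCm38.p6) were found for 63 of the 84 members, in 75 entries. Each sequence below covers the 15 bases before and the 15 bases from the annotated transcription start, 5′ to 3′, and capitals mark a run of at least 5 bases that begins with C, continues with C or T and starts within 5 bases of that start.
Rps18 (chr17:33955651-33955680, minus strand): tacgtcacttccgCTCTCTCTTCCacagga
Rps6 (chr4:86857353-86857382, minus strand): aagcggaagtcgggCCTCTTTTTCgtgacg
Rpl38 (chr11:114668565-114668594, plus strand): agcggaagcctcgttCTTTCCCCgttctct
Rplp2 (chr7:141447636-141447665, plus strand): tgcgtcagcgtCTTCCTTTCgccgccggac
Rpl28 (chr7:4792950-4792979, plus strand): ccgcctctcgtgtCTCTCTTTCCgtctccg
Rps27 (chr3:90213634-90213663, minus strand): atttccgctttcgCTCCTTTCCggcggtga
Rpl22l1 (chr3:28805493-28805522, plus strand): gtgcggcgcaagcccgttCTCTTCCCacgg
Rpl7l1 (chr17:46782642-46782671, minus strand): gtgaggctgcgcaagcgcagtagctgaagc
Rps13 (chr7:116334176-116334205, minus strand): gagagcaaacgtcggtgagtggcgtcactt
Rpl3l (chr17:24727811-24727840, plus strand): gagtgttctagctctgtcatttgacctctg
The first 6 are shown because they hold a pyrimidine run at or next to the start. The others are members named below in the comparison of cell types, of which Rpl22l1 held such a run, while none was found in the windows of Rpl7l1, Rps13 and Rpl3l. Rpl29 and Rps4l, also named there, are not shown. Other members such as Rpl41, Rpl13 and Rpl11 held no run either, so these windows do not set apart the members that differed between cell types. Such a run lay within 5 bases of the start in 41.3% of the member entries (31 of 75) and in 18.3% of all 32851 promoter entries. A run that began exactly at the start was found in 17.3% (13 of 75) and 2.51%, respectively. In the 300 bases around the start, GGAAGT, the core of ETS factor motifs, was found on either strand in 44.0% of the member entries against 23.8% of all entries. AAGATGGC, a YY1 motif, was found in 10.7% against 2.75%, GGGCGG, the GC box, in 60.0% against 35.7%, CACGTG, the E-box, in 10.7% against 7.15%, and TATAAA, the TATA box, in 9.33% against 13.6%. The searches were made separately, so matches may overlap, and a match is a description of these letters only.

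Of the 84 members, 83 passed the filter on low values, which asked for 2 or more libraries with an FPKM of 1 or more. FPKM counts fragments relative to transcript length and sequencing depth. Levels of different genes can be compared only roughly here, since the lengths used were not given and reads shared by near copies may be listed under either gene. Of the 83 members, Rpl3l reached an FPKM of 1 only in the LSK libraries with RBCs and Rpl39l only in 2 libraries with RBCs, so each entered the tests through libraries in which it was high. Rpl10l, a copy of Rpl10 known from the testis, was listed at 0 in all 8 libraries. Members made up 30 of the 50 genes with the highest mean FPKM and 69 of the highest 200. Rps18, a small subunit protein, had the highest mean of the family, 5272 FPKM, and Rpl41, which encodes a very short basic peptide of the large subunit, followed with 5013. Among large subunit genes Rpl13 (mean 3696 FPKM), Rpl32 (3443) and Rpl36 (3287) came next, and among small subunit genes Rps19 (3357), Rps28 (3218) and Rps14 (3171). The median of the mean FPKM over 48 large subunit members was 1082, and over 32 small subunit members 1500, leaving out Rps27 and genes with a mean under 10.

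The lowest members were mostly copies of another member. Rpl39l and Rpl3l, copies of Rpl39 and Rpl3, had means of 0.437 and 0.507 FPKM, against 1930 FPKM for Rpl39 and 1693 for Rpl3. Rps4l followed with 31.5 FPKM, Rps15a with 67.9, Rpl7l1 with 84.3, Rpl26 with 103 and Rpl22 with 104. Rps4l (chromosome 6, 148354656-148355598, plus strand, GRCm38) is annotated in GENCODE M21 as a transcribed processed pseudogene, and the other 83 members are annotated as protein coding. FPKM divides by transcript length, and the longest coding transcript of Rps15a in that annotation has 5179 bases; the length used for the deposited value was not given. snoRNA genes, which guide the modification of rRNA, lay inside 30 of the 84 members on the same strand, 58 in all.

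**Figure D1:**
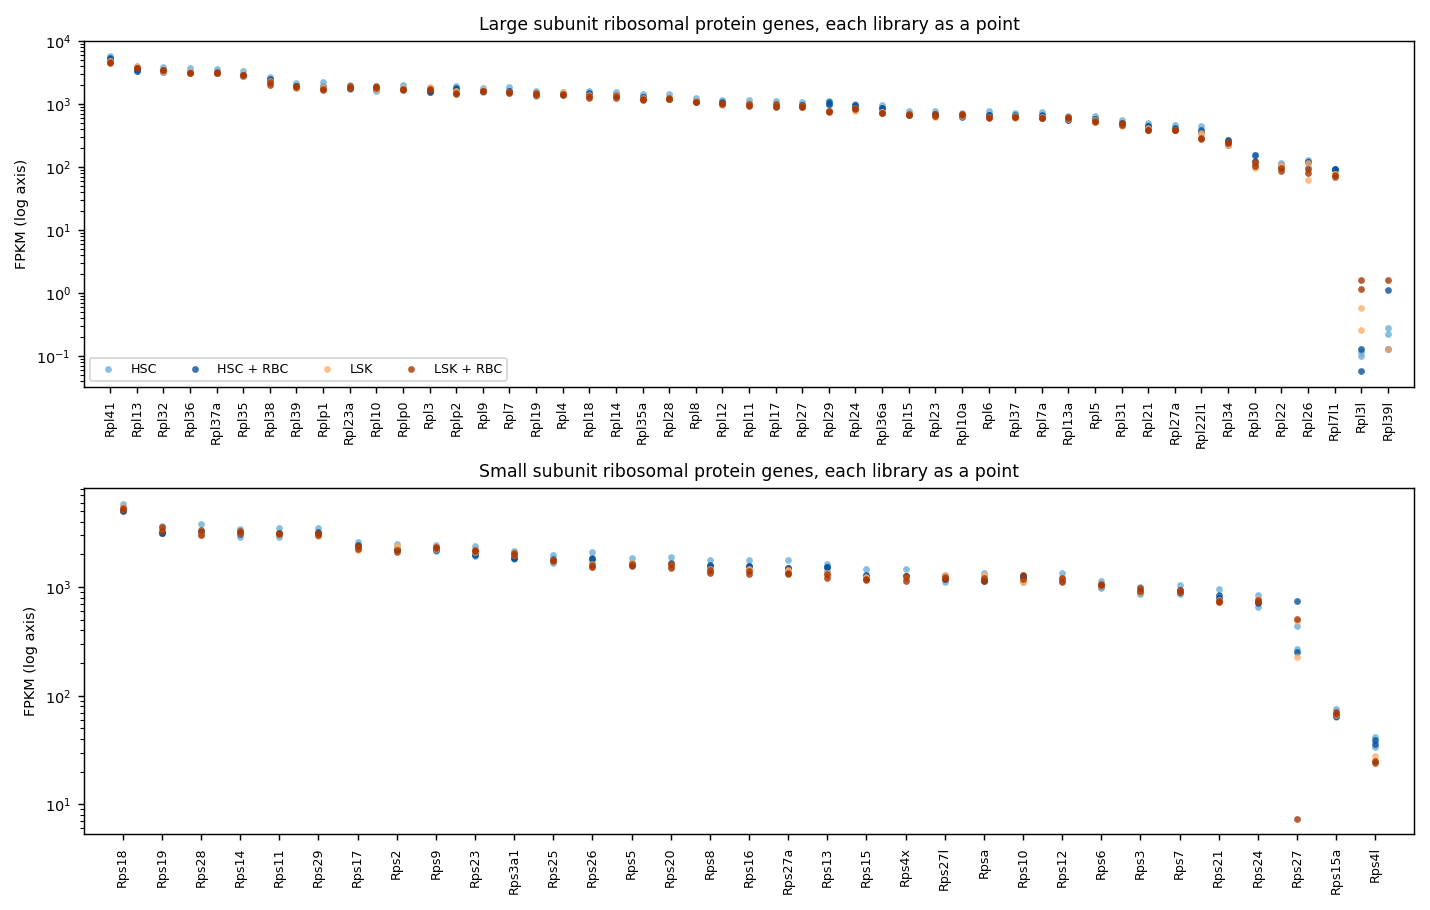
FPKM (log axis) of each member in the 8 libraries, large subunit above and small subunit below, ordered by mean level, with 1 point a library and a color for each group. Most members sit in a narrow band in all libraries; Rpl3l, Rpl39l and Rps27 do not, Rpl10l is not drawn because it is at 0, 1 further member is not reported here, and the 2 libraries with Rpl39l at 0 have no point for it.

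Across libraries these levels were steady. For the 80 members with a mean FPKM of at least 10 other than Rps27, the highest library was at a median 1.22 times the lowest, and in 75 of the 80 the ratio was under 1.5. Only Rpl26 reached 2.08. The SD between replicates, pooled over the 4 groups, had a median of 0.0897 on the log2(FPKM + 1) scale for these members, 0.0972 for 6973 other genes with a mean of at least 10 FPKM, and 0.0710 for 304 others with a mean of at least 300.

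Some facts of the libraries bear on what follows. FPKM summed to between 680942 and 752107 per library, 14829 to 16551 genes were above 0, and relative depth, read from the steps between low FPKM values, ran from 0.787 to 1.01 with the first HSC library without RBCs set to 1; the absolute number of reads is unknown. The second HSC library without RBCs stood apart for this family: it held the highest FPKM of 75 of the 80 members just described, and its median deviation from the mean of all libraries was +0.19 log2 for large and +0.16 for small subunit members, against -0.002 for all genes. Flt3 and Cd48, which mark multipotent progenitors rather than HSCs, were higher in LSK cells (Flt3 15.5 to 22.5 FPKM in HSCs, 89.1 to 101 in LSK cells, and Cd48 16.0 to 42.7 and 124 to 184), while Slamf1, the gene of CD150, was low in both (5.50 to 10.7 and 3.09 to 4.63). Hba-a1, a hemoglobin gene, was at 0.0826 to 1.53 FPKM in the 4 libraries without RBCs and 32.9 to 116 in the 4 with RBCs. Hbb-b1, the partner globin, was at 1.93 and 1.94 in HSCs and 65.1 and 31.0 in HSCs with RBCs, but at 0.907 and 2.12 in LSK cells and 0.0438 and 0.0145 in LSK cells with RBCs. Of 8 red blood cell genes tested, HSCs had 3 called higher with RBCs and LSK cells had 1. The 10 red blood cell genes found in the files summed to 286 to 342 FPKM in HSCs, 303 to 313 in HSCs with RBCs, 115 to 183 in LSK cells and 125 to 191 in LSK cells with RBCs. The 12 neutrophil genes looked up summed to 21.4 to 31.8 FPKM in HSCs, 49.6 to 264 in HSCs with RBCs, 629 to 839 in LSK cells and 1012 to 1235 in LSK cells with RBCs. The 9 B and T cell genes summed to 34.9 to 52.7 FPKM in any library, and the 9 platelet genes to 118 to 256. The part of other cells in the differences below was not tested. In bulk RNA, fewer cells of a type and less RNA per cell cannot be told apart.

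The question of the culture comparison was whether RBCs change the expression of these genes, and by the summed levels no difference beyond the replicates was seen. In HSCs cultured alone the members took 16.8% and 18.4% of all FPKM in the 2 libraries (mean 17.6% ± 1.14, SD, n = 2), and in HSCs with RBCs 17.3% and 17.4% (17.4% ± 0.0848, n = 2). In LSK cells the shares were 17.3% and 17.2% without (17.3% ± 0.0566, n = 2) and 17.7% and 17.3% with RBCs (17.5% ± 0.304, n = 2). Both cell types thus lay inside the range set by the 2 libraries of HSCs cultured alone. The large subunit took 9.06% to 9.92% and the small subunit 7.77% to 8.53% of the FPKM. The summed FPKM of large over small subunit genes was 1.17 and 1.16 in HSCs, 1.17 and 1.15 in HSCs with RBCs, 1.14 and 1.15 in LSK cells, and 1.14 and 1.14 in LSK cells with RBCs. This ratio did not separate the cultures with and without RBCs in either cell type, and it ran from 1.15 to 1.17 in the 4 HSC libraries and from 1.14 to 1.15 in the 4 LSK libraries, with a small overlap.

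**Figure D2:**
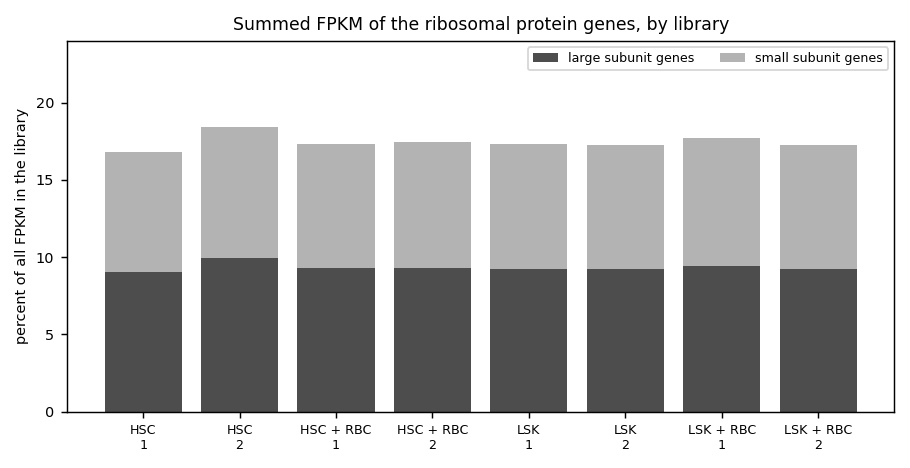
Summed FPKM of the members as a percent of all FPKM of each library, with the large subunit (dark) and the small subunit (light) stacked. The bars lie between 16.8% and 18.4%, and both ends of this range are libraries of HSCs cultured without RBCs.

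No member was called for RBCs against no RBCs. A gene was called when its adjusted p, from limma's moderated test with Benjamini-Hochberg adjustment over 12003 genes, was under 0.05. In HSCs 0 of 83 members were called, where 2.53% of all genes tested were (304 of 12003), and 0 of 83 had an unadjusted p under 0.05, where 13.7% of all genes did. In LSK cells 0 of 83 were called against 3.45% of all genes, and 3 of 83 (3.61%) had an unadjusted p under 0.05, where 18.6% of all genes did. The difference between the RBC effects of the 2 cell types gave 0 of 83 members against 0.133% of all genes, with 1 member (1.2%) at an unadjusted p under 0.05, where 12.5% of all genes were.

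The estimates were small and, for most members, well bounded. In HSCs the median log2 change with RBCs was -0.05 for 50 large and -0.05 for 33 small subunit members, beside -0.006 for all genes. The estimate was below 0 in 72 of 83 members. That direction was carried by the second HSC library without RBCs: without it the medians were +0.06 and +0.08, and without the first library of that group they were -0.17 and -0.18. Among the fits that left out 1 library, members were called only in the latter. It also turned to +0.002 and +0.008 when the libraries were scaled to the same total of the members other than Rps27. In LSK cells the medians were -0.02 and -0.02, beside -0.01 for all genes, and they became +0.02 and +0.01 when the libraries were scaled to the same total FPKM. The 95% interval of the change lay inside 2-fold in either direction for 81 of 83 members in HSCs and 80 of 83 in LSK cells, where 93.9% and 93.5% of all genes did so. It lay within 0.5 on the log2 scale for 80 and 79 members, or 96.4% and 95.2%, beside 62.7% and 59.6% of all genes. These shares of all genes are not matched for level, so they do not show that the family is steadier than other abundant genes. The median replicate SD given above was 0.0897 for 80 members and 0.0710 for 304 other genes with a mean of at least 300 FPKM. The exceptions to the narrower limit were Rps27, Rpl39l and Rpl26 in HSCs and the same 3 with Rpl3l in LSK cells.

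**Figure D3:**
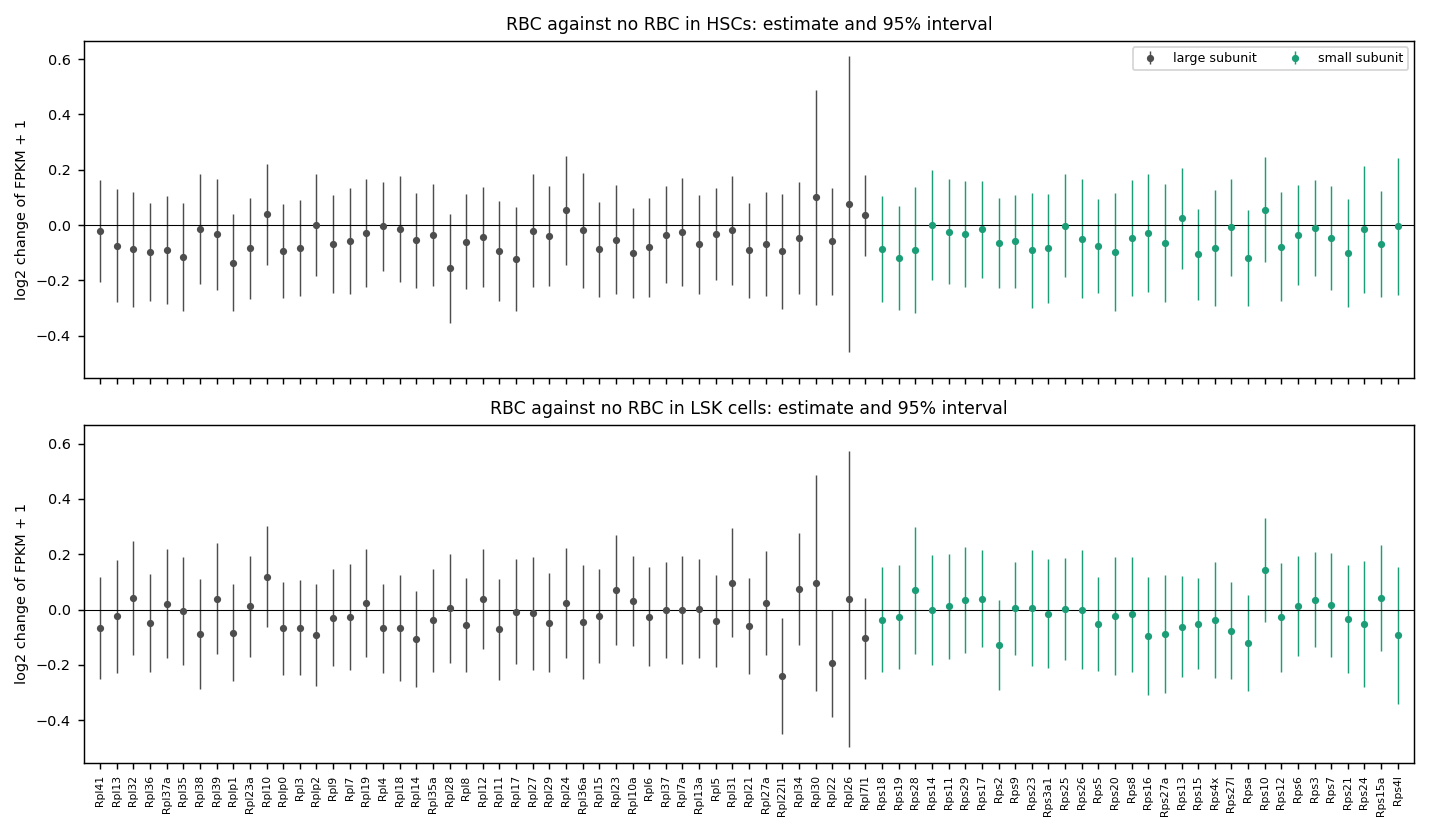
Change with RBCs on the log2(FPKM + 1) scale, with its 95% interval from the limma fit, for 79 members in HSCs (above) and LSK cells (below), ordered by subunit and mean level; Rps27, Rpl3l, Rpl39l and Rpl10l are left out for their wide or missing intervals, and 1 further member is not reported here. Estimates run from -0.16 to 0.10 in HSCs and from -0.24 to 0.14 in LSK cells.

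The members with the largest estimates in HSCs were Rpl28, Rplp1 and Rpl17 on the lower side. Rpl28 was at 1223 and 1478 FPKM without and 1219 and 1193 with RBCs (log2 change -0.16, SE 0.09, adjusted p = 0.51), so the highest value came from the library that stood apart. Rplp1, a protein of the stalk that recruits elongation factors, was at 1936 and 2233 without and 1912 and 1873 with RBCs (-0.14, SE 0.08, adjusted p = 0.52). Rpl17 gave -0.12 (SE 0.08, adjusted p = 0.61). On the higher side stood Rps27, Rpl39l and Rpl30, which are all members of uneven levels. Rpl30 was at 109 and 156 FPKM without and 124 and 158 with RBCs, and its groups overlapped. Both libraries with RBCs lay above both without for 1 of 83 members in HSCs, where 19.9% of all genes did so, and below for 5 of 83, where 21.8% did so.

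In LSK cells the 2 genes of the Rpl22 pair had the lowest estimates after Rps27. Rpl22, an RNA-binding protein of the large subunit that lymphocyte development is known to need, was at 109 and 105 FPKM without and 99.0 and 88.4 with RBCs (-0.19, SE 0.09, adjusted p = 0.27). Its copy Rpl22l1 was at 322 and 348 without and 280 and 287 with RBCs (-0.24, SE 0.09, adjusted p = 0.21). The groups of both genes did not overlap, but neither passed the test. On the higher side Rps10 was at 1127 and 1122 without and 1300 and 1186 with RBCs (+0.14, SE 0.08, adjusted p = 0.41). Rpl3l is taken up below and Rpl39l was at 0.129 and 0 without and 1.60 and 0 with RBCs, so that 1 library held its whole difference. Both libraries with RBCs lay above both without for 8 of 83 members, where 24.2% of all genes did so, and below for 23 of 83 (27.7%), where 26.4% did so.

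Several members with a known part in blood disease or in ribosome function were looked up by name. Rps19, the gene most often mutated in Diamond-Blackfan anemia, was at 3147 and 3645 FPKM in HSCs, 3122 and 3118 in HSCs with RBCs, 3546 and 3430 in LSK cells and 3541 and 3310 in LSK cells with RBCs. Rps14, whose loss in humans is tied to the anemia of a myelodysplastic syndrome, ranged from 2872 to 3434 FPKM in the 8 libraries. Neither was called in any comparison of the FPKM as deposited. Rpl5 (529 to 648 FPKM) and Rpl11 (929 to 1158), which bind Mdm2 and so link ribosome assembly to p53, kept within 1.23 and 1.25 times from the lowest to the highest library. Rps6, the target of the S6 kinases, ranged from 971 to 1148 FPKM, Rpl24 from 789 to 996, and Rpl38, known for its part in the translation of Hox mRNAs, from 2012 to 2692. Rpsa, which is also known as the laminin receptor, ranged from 1139 to 1344. The stalk genes Rplp0 (1672 to 1993), Rplp1 (1699 to 2233) and Rplp2 (1454 to 1917) were not called in any comparison of the FPKM as deposited. For LSK cells against HSCs, both with RBCs, Rplp2 was called lower in LSK cells under 7 of 18 alternatives (-0.25, adjusted p = 0.056 as deposited).

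Rps27 was the exception among the abundant members, and it has a copy with which it shares its coding sequence. Rps27 (chromosome 3, 90212522-90213651, minus strand, GRCm38) encodes a small subunit protein with a zinc finger. Rps27rt (chromosome 9, 114982366-114982739, minus strand), a gene annotated as protein coding and outside the symbol rule, has the same coding sequence: 252 of 252 bases were identical in the GENCODE M21 transcripts. That shared sequence is shown because a read that lies inside it could come from either gene. It runs 5′ to 3′ without the stop codon, with the start codon in capitals.
Rps27 and Rps27rt: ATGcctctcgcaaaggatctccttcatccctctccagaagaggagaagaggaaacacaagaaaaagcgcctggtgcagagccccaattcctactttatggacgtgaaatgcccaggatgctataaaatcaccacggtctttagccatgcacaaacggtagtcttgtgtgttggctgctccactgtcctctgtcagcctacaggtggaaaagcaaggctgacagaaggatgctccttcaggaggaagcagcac
Rps27 was listed at 435 and 271 FPKM in HSCs, 254 and 743 in HSCs with RBCs, 492 and 227 in LSK cells, and 7.37 and 507 in LSK cells with RBCs. The 4 groups overlapped, and the lowest and highest library were 101-fold apart. Rps27rt was listed at 3000 to 4050 FPKM. The sum of both ran from 3719 to 4320 FPKM, a range of 1.16-fold. Summed, the pair changed with RBCs by -0.08 log2 (SE 0.08, adjusted p = 0.78) in HSCs and by 0.08 (SE 0.08, adjusted p = 0.67) in LSK cells. Taken alone, Rps27 gave a log2 change of -2.36 (SE 1.46, adjusted p = 0.43) in LSK cells, which became -5.32 with an adjusted p of 0.012 without the second LSK library with RBCs and 0.60 without the first.

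**Figure D4:**
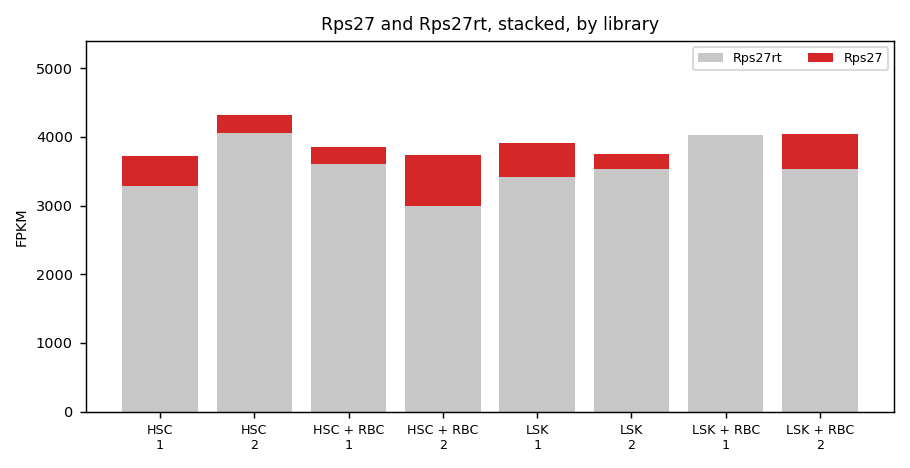
FPKM of Rps27rt (gray) and Rps27 (red) stacked for each of the 8 libraries. The height of the stack stays between 3719 and 4320 FPKM while the red part runs from 7.37 to 743 FPKM.

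Near copies are common in this family, and other members share sequence too. Of 84 members, 81 had at least 1 stretch of 50 bases in their longest coding transcript that also occurred in a transcript of another GENCODE gene, and in 29 members at least 50% of such stretches did. The shares were 86.7% for Rps18, 85.4% for Rpl10 and 84.6% for Rps6. Rpl34 showed the same kind of pairing as Rps27, with its coding sequence identical at 349 of 351 bases to Rpl34-ps1, a processed pseudogene. It was listed at 227 to 271 FPKM against 1884 to 2284 for Rpl34-ps1, but here the division between the 2 held across libraries, with Rpl34 at 9.97% to 11.6% of the sum. For such members the level of the gene itself is uncertain.

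Between LSK cells and HSCs a few members were called lower in LSK cells, namely Rpl29, Rps4l, Rpl22l1, Rpl7l1 and Rps13. Of these, Rps4l, Rpl22l1 and Rpl7l1 are copies or relatives of another member. Without RBCs 2 of 83 members were called lower in LSK cells (2.41%), where 7.29% of all genes were, and 0 of 83 were called higher, where 6.93% of all genes were. With RBCs 5 of 83 were called lower (6.02%), where 12.5% of all genes were, and 1 of 83 was called higher (1.20%), where 11.9% were. That 1 member was Rpl3l, which passed the filter only through the 2 LSK libraries with RBCs, so its call is not support for a difference. The number of calls with RBCs, 6 here, depended on single libraries and on the fit. It was highest without either HSC library without RBCs, though these are not part of this comparison, and it was 19 with only the 2 groups in the fit. Shares of all genes called in these other fits were not set beside the counts. The comparisons with and without RBCs use different libraries. Without RBCs, both LSK libraries lay below both HSC libraries for 22 members (26.5%), where 26.9% of all genes did so, and above them for 1 member (1.20%), where 28.0% of all genes did so. With RBCs they lay below for 39 members (47.0%), where 33.1% of all genes did so, and above for 17 (20.5%), where 33.7% did so.

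Rpl29 was lower in LSK cells in both culture conditions. It encodes a large subunit protein that was also described as a heparin-binding protein of the cell surface, and lies on chromosome 9 (106429454-106431568, plus strand, GRCm38). It was at 985 and 1143 FPKM in HSCs and 794 and 775 in LSK cells, and with RBCs at 1071 and 996 in HSCs and 771 and 748 in LSK cells. All 4 LSK libraries lay below all 4 HSC libraries. The log2 difference was -0.44 without RBCs (SE 0.08, 95% interval -0.61 to -0.26, adjusted p = 0.0075) and -0.44 with RBCs (SE 0.08, -0.62 to -0.26, adjusted p = 0.0044). Of 50-base stretches in its transcript, 47.9% also occurred in other genes, most of them in Gm6344.

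Rps4l showed the same order at a low level. It was at 33.8 and 41.4 FPKM in HSCs, 27.7 and 25.1 in LSK cells, 35.7 and 39.0 in HSCs with RBCs and 25.3 and 24.04 in LSK cells with RBCs. The 4 LSK libraries were again below the 4 HSC libraries (log2 difference -0.49, SE 0.11, adjusted p = 0.018 without RBCs, and -0.58, SE 0.11, adjusted p = 0.0056 with RBCs). Rps4x, the gene it was copied from (79.6% identical bases over the coding sequence), was at 1141 to 1481 FPKM in all libraries and was not called. Rps4l amounted to 2.78% to 3.08% of Rps4x in HSCs and 2.01% to 2.22% in LSK cells.

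Rpl22l1, Rpl7l1 and Rps13 were called lower in LSK cells with RBCs. Rpl22l1, which can take the place of Rpl22 in the ribosome, was at 366 and 393 FPKM in HSCs with RBCs and 280 and 287 in LSK cells with RBCs (-0.42, SE 0.09, 95% interval -0.63 to -0.21, adjusted p = 0.011). Without RBCs it was at 368 and 447 in HSCs and 322 and 348 in LSK cells (-0.28, SE 0.09, adjusted p = 0.081), which was also without overlap but did not pass the test. Rpl22l1 exceeded Rpl22 in every library, by 3.41 to 3.84 times in HSCs and 2.82 to 3.31 times in LSK cells. Rpl22 itself was not called, and the coding sequences of the pair are identical at 69.4% of aligned bases.

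Rpl7l1, a relative of Rpl7 (57.3% identical bases), was at 94.9 and 93.0 FPKM in HSCs with RBCs and 75.6 and 70.6 in LSK cells with RBCs. Without RBCs it was at 91.2 and 92.1 in HSCs and 79.1 and 78.1 in LSK cells. The difference was -0.36 with RBCs (SE 0.07, adjusted p = 0.0046) and -0.22 without (adjusted p = 0.0545). Replicates of this gene were close in every group. Rps13, a core protein of the small subunit, was at 1537 and 1522 FPKM in HSCs with RBCs and 1309 and 1223 in LSK cells with RBCs (-0.27, SE 0.08, adjusted p = 0.036). It was called under 9 of 18 alternative settings only, and without RBCs it was at 1396 and 1620 in HSCs and 1349 and 1292 in LSK cells.

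Rpl3l was the member called higher in LSK cells with RBCs, at a very low level, and since it passed the filter only through those 2 libraries its values are given as a description. It is the copy of Rpl3 that is known to replace it in heart and skeletal muscle, and its coding sequence is identical to that of Rpl3 at 74.3% of aligned bases. It was at 0.117 and 0.0999 FPKM in HSCs, 0.131 and 0.0580 in HSCs with RBCs, 0.262 and 0.590 in LSK cells and 1.63 and 1.17 in LSK cells with RBCs. The order was thus HSCs of either culture, which overlapped, then LSK cells, then LSK cells with RBCs, and neither of the later groups overlapped with the one before. The log2 difference between LSK cells and HSCs was 1.13 with RBCs (SE 0.20) and 0.35 without (SE 0.20). Within LSK cells the change with RBCs was 0.75 (SE 0.20). In units of its smallest value after allowing for depth, it stood at 1 to 2 in the HSC libraries and at 4, 10, 22 and 16.8 in the LSK libraries, so these values stand near the lower limit of detection. At its highest, Rpl3l reached 0.0942% of Rpl3, which ranged from 1566 to 1849 FPKM.

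**Figure D5:**
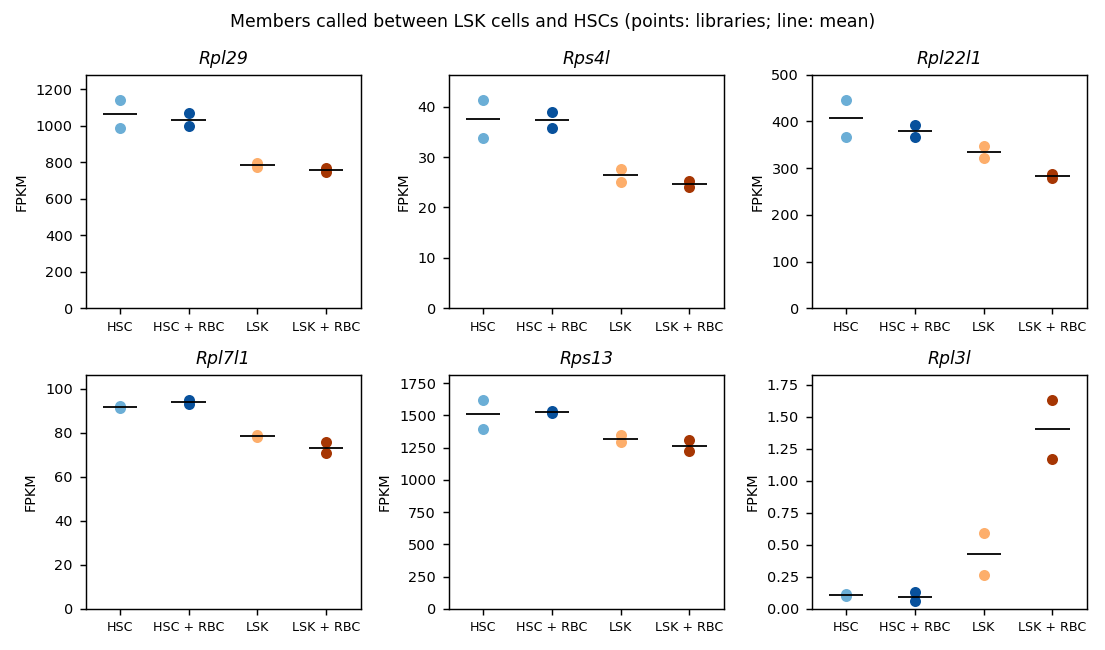
FPKM of the 6 members called between LSK cells and HSCs, with 1 point a library and a line at the mean of each group; axes start at 0 and differ between genes. Rpl29 and Rps4l are lower in all 4 LSK libraries than in all 4 HSC libraries. Rpl3l reaches 1.63 FPKM at most and passed the filter only through the LSK libraries with RBCs.

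Among the members that were not called, the estimates without RBCs were most negative for Rpl26 (-0.42, SE 0.24, adjusted p = 0.29), which binds p53 mRNA, with 101 and 129 FPKM in HSCs against 62.1 and 116 in LSK cells. They were most positive, after Rpl3l, for Rpl3 (0.09, adjusted p = 0.50) and for Rps27l (0.08, adjusted p = 0.58), a p53-induced relative of Rps27 that was at 1120 to 1305 FPKM in all libraries. With RBCs, Rps19 (0.13, SE 0.08, adjusted p = 0.27) was among those that followed Rpl3l, and it was higher in both LSK libraries than in both HSC libraries.

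For LSK cells against HSCs, the medians of both subunits were below 0 as deposited, from -0.12 to -0.02. Without RBCs the estimate was below 0 in 68 of 83 members, where 5833 of 12003 genes were. With RBCs it was below 0 in 54 of 83 members, where 5895 of 12003 genes were. For LSK cells against HSCs without RBCs the median log2 difference was -0.12 for the large and -0.05 for the small subunit, beside 0.008 for all genes. With RBCs it was -0.05 and -0.02, beside 0.008. For the small subunit the sign turned under other scalings, to between +0.003 and +0.02 without RBCs in 2 of them and between +0.02 and +0.04 with RBCs in 4. For the large subunit it stayed below 0 under all 5 other scalings, at -0.02 to -0.12 without and -0.005 to -0.06 with RBCs. Leaving out the first HSC library without RBCs, so that the library that stood apart was alone, moved both medians without RBCs further below 0. Leaving out the second instead turned them to +0.002 and +0.07. The number of members called without RBCs also depended on which of these libraries was kept, and it is not read here, as the share of all genes was not set beside it.

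The members' levels relative to each other were also compared. With each library scaled to the same total of the members other than Rps27, a choice made after the data had been examined, the comparison without RBCs gave 5 of 83 members higher in LSK cells (6.02%, beside 6.02% of all genes) and 3 lower (3.61%, beside 3.68% of all genes). With RBCs it gave 10 higher (12.0%, beside 9.71% of all genes) and 13 lower (15.7%, beside 7.39% of all genes). The scaling is set by these same members, so it takes their shared differences between libraries out of their own spread and adds them to other genes. Under it the shares of members and of all genes are thus not alike, and the gap between them is not a result about the family. The higher ones in both conditions were Rpl13, Rpl3, Rps19 and Rps3a1, and the lower ones in both were Rpl29, Rps26 and Rps4l. Rps26, a small subunit protein at the mRNA exit channel, was at 1711 and 2114 FPKM in HSCs and 1627 and 1530 in LSK cells as deposited, and at 1825 and 1851 against 1613 and 1542 with RBCs.

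Other genes of the ribosome and its production were looked up from lists, and their counts stand beside the shares of all genes called between LSK cells and HSCs, 7.29% lower and 6.93% higher without RBCs and 12.5% lower and 11.9% higher with RBCs. Among ribosomal proteins with other kinds of symbol, Rpl36al was called lower in LSK cells than in HSCs, both with RBCs (-0.32, adjusted p = 0.0082). Of 53 ribosome assembly factors, 0 were called for RBCs in HSCs and 1 in LSK cells, where Mrto4 was lower (-0.46, SE 0.07, adjusted p = 0.0089). Mrto4 was at 67.3 and 70.9 FPKM in LSK cells and 51.3 and 48.4 in LSK cells with RBCs. The median change of the assembly factors with RBCs was 0.04 in HSCs and -0.16 in LSK cells, with 50 of 53 below 0 in LSK cells, where 6240 of 12003 genes were, and both signs held under all 5 other scalings. None of the 53 was called for the difference between the RBC effects, whose median was 0.19, beside 0.001 for all genes. LSK cells with RBCs had 17 of them lower and 1 higher than HSCs with RBCs, with Mrto4 (-0.62), Nhp2 (-0.46), Imp4 (-0.45) and Bysl (-0.43) the lowest, while without RBCs 1 was lower and 1 higher.

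Mitochondrial ribosomal proteins, which form the separate ribosome of that organelle, included genes called lower in LSK cells in both culture conditions. Of 77 tested, 10 were lower and 0 higher without RBCs, and 28 were lower and 1 higher with RBCs, with Mrpl23 (-0.85 and -0.92) and Mrpl42 (-0.46 and -0.78) among the lowest. Their median was -0.13 without and -0.20 with RBCs, and 0 of 77 were called for RBCs in either cell type. Of 22 initiation factors tested, 2 were lower in LSK cells without RBCs, Eif1a (-0.26) and Eif4a2 (-0.28), and 0 were higher. With RBCs 7 were lower, led by Eif1ax (-0.56) and Eif5b (-0.46), and 1 was higher, Eif5 (0.21). Among 19 elongation factors and other TOP mRNAs, Nap1l1 (-0.36 and -0.62), Eef1d (-0.29 and -0.52) and Eef1g (-0.33 and -0.48) were called lower in LSK cells both without and with RBCs, Eif2s3x (-0.28) was called lower with RBCs, and Eef2 (0.21) was called higher without RBCs. Of 20 genes of RNA polymerase I and rDNA transcription, 3 were lower and 3 higher without RBCs, and 6 lower and 3 higher with RBCs, with Polr2l (-0.41 and -0.58) and Znrd1 (-0.53 and -0.48) lower and Taf1a (0.73 and 0.51) and Ttf1 (0.51 and 0.50) higher in both.

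Of 25 genes that control ribosomal protein mRNAs or S6 kinases, 1 was called for RBCs: Myc, which drives ribosome production, was lower in LSK cells with RBCs. It was at 269 and 281 FPKM without and 214 and 219 with RBCs (-0.34, SE 0.07, adjusted p = 0.030). In HSCs Myc was at 235 and 223 without and 232 and 210 with RBCs, and its change was not called (adjusted p = 0.82). The difference between these changes did not pass the test (adjusted p = 0.29). Between the cell types without RBCs, Mxd4 (0.88), Rptor (0.56) and Tsc2 (0.52) were higher and Mycn (-0.41) was lower in LSK cells, among 5 higher and 1 lower. With RBCs, 2 were higher and 3 were lower.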

How the data were processed

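RNA from 8 libraries had been made into full-length cDNA and sequenced. The authors deposited 1 FPKM value per gene symbol and library; the submitters' processing notes name TopHat2 2.1.1, Bowtie2 2.2.8, SAMtools 0.1.18, Cuffdiff 2.2.1 and the build mm10, and the annotation is not given in the sources used here. Replicates were not pooled. Counts were not used here, so the absolute depth and any sampling interval are unknown, and TopHat2 and Cuffdiff divide reads shared by near copies by rules that cannot be checked from FPKM. Groups came from the sample titles.

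The values deposited by the authors as FPKM were put on the log2(FPKM + 1) scale, and the 12003 genes with 2 or more libraries at an FPKM of 1 or more were kept. Fold changes on this scale understate those of low genes. limma 3.58.1 (R 4.3.3) fitted the means of the 4 groups with a mean-variance trend and no block, with 4 residual and 5.18 prior degrees of freedom; p-values were adjusted by Benjamini-Hochberg over all genes, and a gene was called at an adjusted p under 0.05. The procedure was tested on simulated data. Shares, sums and list counts were computed in Python 3.11.15 with pandas 2.3.3 and numpy 2.4.6. Sequences came from RefSeq promoter tables (GRCm38.p6) and GENCODE M21 transcripts (GRCm38, the same assembly as mm10), aligned with Biopython 1.88.

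The members and gene lists were chosen with earlier results of these data known. Members are named by size of change (up to 5 called per direction, otherwise the 3 largest), as paralogs, as the 4 highest and lowest of each subunit, by known roles, and from other lists up to 4 called genes per comparison. Rps26, Rps3a1, Rpl34-ps1, Rps27rt and the markers were named after their values were seen. Results on 2 genes are not reported here. Alternatives covered the pseudocount, filter, 4 scalings, replicate block, trend, libraries in the fit, a 2-fold threshold and the omission of each library. The scaling to the other members and the sum of Rps27 and Rps27rt were added after seeing the data.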

Additional observations from a re-analysis of the deposited data

Results flagged for a closer look

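Rpl7l1 was the 1 member whose libraries moved in opposite directions with RBCs in the 2 cell types without overlap in either. The share of all genes with this joint pattern was not counted, so it is not read as particular to Rpl7l1. Taken singly, 19.9% of all genes lay above without overlap in HSCs, and 26.4% lay below in LSK cells. In HSCs both libraries with RBCs (94.9 and 93.0 FPKM) lay above both without (91.2 and 92.1), and in LSK cells both with RBCs (75.6 and 70.6) lay below both without (79.1 and 78.1). The log2 change was 0.138 higher in HSCs than in LSK cells (SE 0.09). The difference did not pass the test in the fit across all genes (limma, adjusted p = 0.59). With 2 libraries per group, single libraries could not be tested as outliers.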

How the results depend on the processing

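Of the called members, Rpl29, Rps4l and Rpl7l1 kept their call between LSK cells and HSCs with RBCs under 18 alternatives to the fit, and Rpl22l1 under 15. All 4 lost it with a 2-fold threshold. The call left there was that of Rpl3l, which entered the tests only through the libraries where it was high. Without RBCs, Rpl29 kept its call under 17 (adjusted p = 0.057 without the second LSK library) and Rps4l under 14. Members called were 1 for RBCs in LSK cells with quantile normalization (Rps10). For LSK cells against HSCs without RBCs they were 1 with no filter or only the 2 groups in the fit, 6 with quantile normalization, 8 with the scaling to the other members and 0 with a 2-fold threshold. With RBCs they were 13 with the same total FPKM, 18 with quantile normalization, 19 with only the 2 groups, 23 with the scaling to the other members and 1 with a 2-fold threshold. Shares of all genes called are not set beside these counts, so they show only how the members' calls moved with the setting. Quantile normalization moved the median of the large subunit without RBCs to -0.021. Without short RNA genes in the total, the members' share was 18.1% in HSCs, 17.7% in HSCs with RBCs, 17.7% in LSK cells and 17.9% in LSK cells with RBCs.

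With each library left out in turn, the number of members called moved in every comparison but the difference of the RBC effects. These fits leave 1 library in a group, and shares of all genes were not set beside their counts. The counts given below thus show only how the members' calls moved when a library was left out. They are not read as results about the family. In the fit without the first HSC library without RBCs, the library that stood apart was alone in its group. Medians of the large and small subunits ran from -0.17 to 0.056 and -0.183 to 0.079 for RBCs in HSCs, -0.156 to 0.071 and -0.16 to 0.0704 for the difference of the RBC effects, and -0.233 to 0.0016 and -0.167 to 0.066 between cell types without RBCs. The highest counts came without the first HSC library without RBCs (5, 42 and 24) or without its replicate (24 with RBCs), the 1 in LSK cells (Rps27) without the second LSK library with RBCs, and the 1 without RBCs without the second LSK library without RBCs. The lone library was assumed to vary like the other groups.

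Libraries of the same replicate number showed no strong shared deviation across groups (correlations of deviations -0.067 to 0.095 over 12003 genes). With 2 libraries a group, this cannot show whether they shared an animal or a batch. With the replicate block, 0 members were called for RBCs in either cell type, 2 between cell types without RBCs and 5 with RBCs, where Rps13 lost its call (adjusted p = 0.067).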
